A study of Mus musculus with 9 samples.

Results

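A set of 9 genes whose products are used to define mesenchymal stem cells by antibody staining was followed across cultured adipose-derived stem cells (ASCs) of 3 mouse fat depots. They were Ly6a, Ly6c1, Thy1, Eng, Cd34, Cd44, Nt5e, Alcam and Vcam1, taken by symbol from a table of 54532 genes. All 9 were found and all 9 passed the filter on low counts that left 16526 genes for testing. The 3 groups were ASCs from subcutaneous fat (Sub-ASC), abdominal fat (Ab-ASC) and the fat around arteries (PVASC), each with 3 RNA-seq libraries from C57BL/6 mice. No treatment, transgene or deletion is named for any group, and the sex and age of the mice are not given in the sources used here. All cells had been expanded in medium with serum, leukemia inhibitory factor and FGF and were harvested between passages 3 and 6, with the passage of each library not given. No sorting before culture is described, and it is not stated whether the 3 libraries of a group came from separate animals or cultures, so p-values measure the spread between these libraries only.

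None of the 9 products is found on stem cells alone. Ly6a (Sca-1), Ly6c1 (Ly-6C) and Thy1 (CD90) are small proteins held in the membrane by a lipid anchor. Eng (CD105) is a co-receptor for BMP9 and related TGF-β family ligands, Cd34 is a sialomucin of progenitors and endothelium, Cd44 is the main hyaluronan receptor, and Nt5e (CD73) is the ectoenzyme that makes adenosine from AMP. Alcam (CD166) and Vcam1 (CD106) are adhesion molecules of the immunoglobulin superfamily, the latter a ligand of α4 integrins. Mesenchymal stem cell panels expect most of these at the surface together with the absence of CD45, the leukocyte phosphatase encoded by Ptprc, and CD31, the endothelial adhesion molecule encoded by Pecam1. CD34 is asked to be absent in panels for human cells, whereas freshly isolated adipose stromal cells carry it.

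The libraries held 20524173 to 29881036 reads assigned to genes. The replicates were tightest in PVASC, with a biological coefficient of variation of 3.85%, against 5.69% in Sub-ASC and 12.5% in Ab-ASC. The first Ab-ASC library stood apart from the other 2 of its group, with a chi-square per degree of freedom of 29.3 and 18.5 against them and 4.26 between those 2. Without it all 9 genes were still called in each of the 3 comparisons below, and the values that moved most are given beside Ly6a, Ly6c1, Thy1 and Alcam. Levels are given as CPM, read counts relative to the library total after scaling by the trimmed mean of M-values, and a floor of 3 reads corresponded to 0.0917 to 0.161 CPM. A gene was called when its adjusted p-value in the quasi-likelihood test of edgeR, adjusted by Benjamini-Hochberg over the 16526 genes, was under 0.05.

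The sequences of Ly6c1 and the nearby Ly6c2 are shown because Ly6c1 differed more between groups than any other of the 9 genes and because its reads could be confused with those of this close copy. Both lie on the minus strand of chromosome 15 in GRCm38, and their coding sequences of 393 bases each differed at 9 positions, an identity of 97.7%. The 60 coding bases from position 6 to position 65, at chr15:75048447-75048506 for Ly6c1 and chr15:75111603-75111662 for Ly6c2, carried 6 of the 9 differences, which are in capitals.
Ly6c1: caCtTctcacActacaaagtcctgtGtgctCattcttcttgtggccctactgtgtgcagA
Ly6c2: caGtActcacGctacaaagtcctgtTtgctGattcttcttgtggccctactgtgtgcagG

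The 250 bases before the first listed RefSeq start site in GRCm38.p6 were at chr15:75048838-75049087 for Ly6c1 and chr15:75111972-75112221 for Ly6c2, both read 5′ to 3′ on the minus strand. They are shown because both genes had nearly all of their reads in Sub-ASC. Capitals mark matches on either strand to the TATA box letters TATAAA and to the box CCAAT.
Ly6c1: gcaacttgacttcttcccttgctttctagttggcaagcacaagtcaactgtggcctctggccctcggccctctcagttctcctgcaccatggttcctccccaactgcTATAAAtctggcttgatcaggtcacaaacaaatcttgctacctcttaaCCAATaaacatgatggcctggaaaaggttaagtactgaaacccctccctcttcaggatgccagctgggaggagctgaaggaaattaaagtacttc
Ly6c2: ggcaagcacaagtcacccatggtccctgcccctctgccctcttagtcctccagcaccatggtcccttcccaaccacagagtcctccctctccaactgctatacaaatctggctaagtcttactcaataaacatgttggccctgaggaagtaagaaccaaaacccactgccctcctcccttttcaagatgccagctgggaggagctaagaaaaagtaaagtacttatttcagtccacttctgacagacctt

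The Ly6c1 window held TATAAA at -143 to -138 and CCAAT at -95 to -91, counted back from the start site, whereas the Ly6c2 window held none of these matches. The window of the second listed Ly6c1 start site also held none. Among all 32851 promoter windows of the same length, 12.4% held TATAAA and 33.8% held CCAAT on either strand. Both windows were poor in CpG, with 1 in Ly6c1 and 0 in Ly6c2, whereas those of Nt5e and Alcam held 21 and 22, against a median of 6 over all windows. Windows were listed for 6 of the 9 genes but not for Ly6a, Thy1 or Vcam1. The interferon-stimulated response element, held by 2.98% of all windows, was not in those listed, which says only that these letters are not in these bases. These matches describe letters and are not evidence of binding.

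The surface marker genes did not move as a block between depots. Sub-ASC had the highest level of Ly6a, Ly6c1, Cd34, Nt5e and Vcam1, PVASC the highest level of Thy1, Eng and Alcam, and Ab-ASC the highest level of Cd44. Ab-ASC was lowest for 5 of the 9 genes (Ly6a, Ly6c1, Thy1, Cd34 and Vcam1), Sub-ASC for 3 (Eng, Cd44 and Alcam) and PVASC for Nt5e. The libraries of no 2 groups overlapped for any of the 9 genes, as for 43.2% of all genes tested, so no neighbours in the order of any of the 9 lay within their spread. Taken by pair, the libraries of 77.3% of all genes did not overlap between PVASC and Sub-ASC, 63.9% between PVASC and Ab-ASC and 76.5% between Ab-ASC and Sub-ASC. By the test, 28.7% of all genes tested were higher in Sub-ASC than in both other groups, 20.9% were so in Ab-ASC and 10.2% in PVASC, against 5, 1 and 3 of the 9. In bulk RNA, fewer cells that express a gene and less RNA per cell cannot be told apart.

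**Figure D1:**
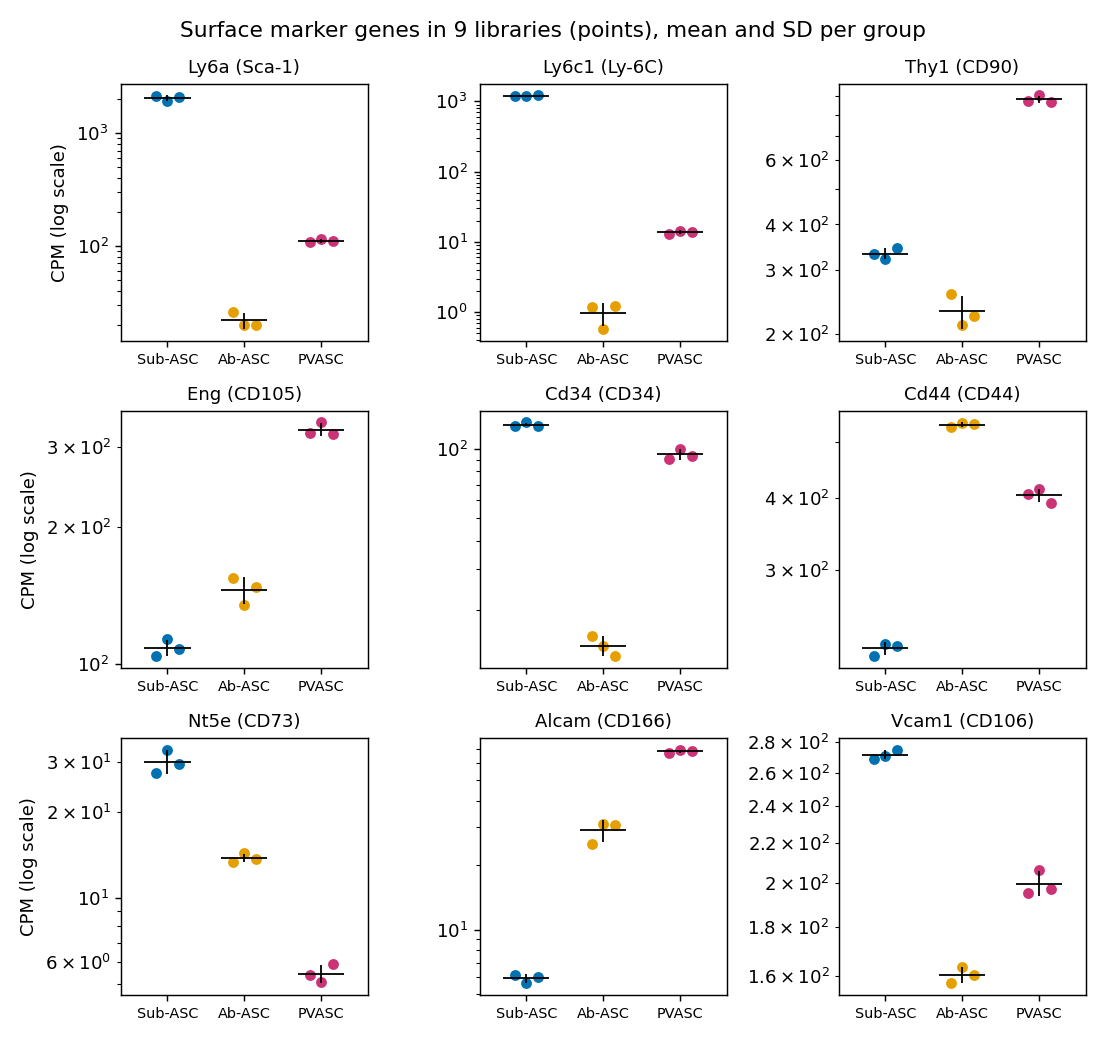
Level of each of the 9 surface marker genes in CPM on a log axis, with each of the 9 libraries as a point, the group mean as a horizontal line and the SD as a vertical line. The 3 groups do not overlap in any panel, as for 43.2% of all genes tested, and Ly6a and Ly6c1 span the widest ranges, from 19.8 to 2138 CPM and from 0.578 to 1221 CPM.

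The comparison of PVASC with Sub-ASC asked how ASCs of perivascular fat differ from those under the skin. All 9 genes were called, 4 higher and 5 lower in PVASC, where 70.4% of all genes tested were called (34.7% higher and 35.7% lower). When a difference of 1 or more on the log2 scale was also required, 6 of the 9 were called against 32.2% of all genes. Between PVASC and Ab-ASC all 9 were called, 7 higher and 2 lower in PVASC, where 56.9% of all genes were called (24.7% higher and 32.1% lower), and 7 of the 9 passed the fold limit against 15.4% of all genes. Between Ab-ASC and Sub-ASC all 9 were called, 3 higher and 6 lower in Ab-ASC, where 75.3% of all genes were called (37% higher and 38.3% lower), and 6 of the 9 passed the fold limit against 37.8%. All 3 pairs were called for 35.5% of genes tested and for each of the 9, and a difference of any kind among the groups for 84.6% and for each of the 9. The median absolute log2 fold change over the 9 genes was 1.60, 1.34 and 1.29 in the 3 comparisons in this order, against 0.59, 0.38 and 0.75 over all genes tested.

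**Figure D2:**
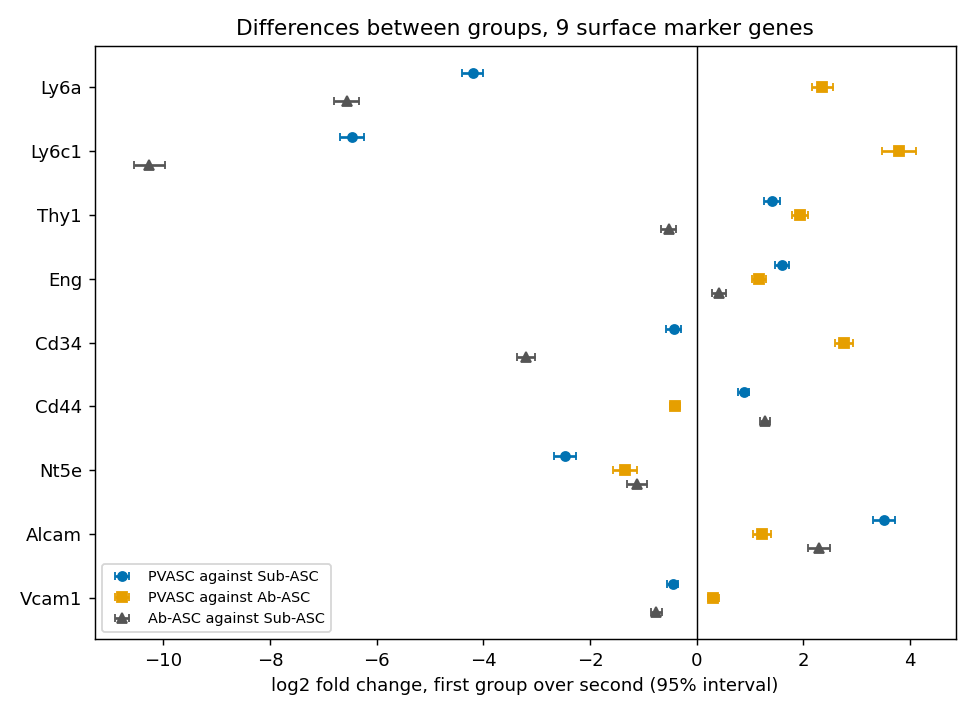
Log2 fold change of the 9 surface marker genes in the 3 comparisons, with 95% intervals from the fit as bars and a vertical line at no difference. The points of Ly6a and Ly6c1 lie farthest to the left for the comparisons against Sub-ASC, reaching -10.26 for Ly6c1 in Ab-ASC, and Alcam lies farthest to the right against Sub-ASC at 3.52.

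The 2 Ly6 genes had the largest differences of the 9 in both comparisons against Sub-ASC. Ly6a, the gene of the Sca-1 antigen, stood at 2138, 1919 and 2090 CPM in the Sub-ASC libraries, at 25.7, 19.8 and 19.8 CPM in Ab-ASC and at 107, 116 and 110 CPM in PVASC. Every Sub-ASC library was thus far above all others, and every PVASC library above every Ab-ASC library. Ly6a was 18.4-fold higher in Sub-ASC than in PVASC (log2 fold change -4.20 ± 0.09 (SE) for PVASC over Sub-ASC, adjusted p = 9.36e-13 by the quasi-likelihood test of edgeR, Benjamini-Hochberg adjusted, as for every adjusted p below). It was 94.4-fold higher in Sub-ASC than in Ab-ASC (adjusted p = 8.03e-14) and 5.13-fold higher in PVASC than in Ab-ASC (log2 fold change 2.36 ± 0.09, adjusted p = 1.01e-09). The first Ab-ASC library had the highest Ly6a level of its group, and without it the log2 fold change was 2.49 for PVASC over Ab-ASC and -6.69 for Ab-ASC over Sub-ASC.

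Ly6c1, whose product is otherwise known from monocytes, lymphocytes and endothelium, stood at 1200, 1199 and 1221 CPM in Sub-ASC and at 12.8, 14.4 and 14.0 CPM in PVASC. In Ab-ASC only 22, 13 and 27 reads were assigned to it, or 1.18, 0.578 and 1.20 CPM. The order was that of Ly6a with wider gaps. Ly6c1 was 88.0-fold higher in Sub-ASC than in PVASC (log2 fold change -6.46 ± 0.10, adjusted p = 5.92e-14) and 14.0-fold higher in PVASC than in Ab-ASC (3.80 ± 0.15, adjusted p = 9.02e-10). The difference between Ab-ASC and Sub-ASC was -10.26 ± 0.13 on the log2 scale (adjusted p = 1.51e-14). Without the first Ab-ASC library the log2 fold change of Ly6c1 was 3.93 for PVASC over Ab-ASC and -10.39 for Ab-ASC over Sub-ASC. By the F statistic for any difference among the groups, Ly6c1 ranked 18 and Ly6a 116 of the 16526 genes tested. Together they took 74.0% to 75.6% of all reads of the 9 genes in Sub-ASC, 1.81% to 2.28% in Ab-ASC and 5.77% to 6.01% in PVASC.

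Reads of Ly6c1 are the least certain of the 9 genes, since 36.7% of the 50-base windows of its longest coding transcript also occur in another gene, mostly Ly6c2. The copy Ly6c2 had 105, 137 and 133 reads in the Sub-ASC libraries, 0 in each Ab-ASC library and 0, 1 and 0 in PVASC. Its Sub-ASC level was at least 34.9-fold higher than in Ab-ASC against a floor of 3 reads per library. For Ly6a 10.04% of windows were shared with other genes, for Cd34 4.07%, and for the other 6 genes at most 0.351%. How the counting treated reads with several matches is not given in the sources used here.

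Of 18 relatives of the Ly6 family listed, 16 were in the table and 8 were tested: in PVASC against Sub-ASC 2 were higher and 6 lower, and in Ab-ASC against Sub-ASC 1 was higher, 6 were lower and 1 was not called. These counts, like those of the lists below, stand beside the 70.4%, 56.9% and 75.3% of all genes called in PVASC against Sub-ASC, PVASC against Ab-ASC and Ab-ASC against Sub-ASC. Of the 8, 3 had at least 10 reads in every library: in PVASC against Sub-ASC Ly6e (-3.42) and Lynx1 (-0.42) were lower and Ly6k (1.05) higher on the log2 scale. The other 5 had few or no reads in at least 1 group. Ly6e, the most abundant of them, had a mean over 3 libraries, as for all averages below, of 1214 CPM in Sub-ASC, 141 in Ab-ASC and 114 in PVASC. Gpihbp1, which carries lipoprotein lipase across capillary endothelium, averaged 2.72 CPM in Sub-ASC, 0.318 in Ab-ASC and 0.0321 in PVASC, and Ly6i 0.880, 0.0179 and 0.0853 CPM. Between PVASC and Ab-ASC 1 relative was higher, 4 were lower and 3 were not called.

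Thy1 and Eng, both staples of mesenchymal stem cell panels, were highest in PVASC. Thy1 stood at 874, 905 and 870 CPM in PVASC, at 332, 321 and 344 CPM in Sub-ASC and at 258, 211 and 224 CPM in Ab-ASC. The gap between Sub-ASC and Ab-ASC was small beside that to PVASC. Thy1 was 2.66-fold higher in PVASC than in Sub-ASC (log2 fold change 1.41 ± 0.07, adjusted p = 1.42e-09) and 3.82-fold higher than in Ab-ASC (1.93 ± 0.07, adjusted p = 5.01e-10, or 2.02 without the first Ab-ASC library). It fell by 0.53 on the log2 scale in Ab-ASC against Sub-ASC (adjusted p = 1.57e-05), and by 0.61 without that library.

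Eng stood at 322, 340 and 321 CPM in PVASC, at 154, 134 and 147 CPM in Ab-ASC and at 104, 113 and 108 CPM in Sub-ASC. Here Ab-ASC and not Sub-ASC held the middle place. Eng was 3.03-fold higher in PVASC than in Sub-ASC (log2 fold change 1.60 ± 0.06, adjusted p = 1.63e-10) and 2.26-fold higher than in Ab-ASC (1.17 ± 0.06, adjusted p = 1.33e-08). Its difference between Ab-ASC and Sub-ASC was 0.42 ± 0.06 (adjusted p = 4.41e-05). Of 12 receptors, ligands and intracellular SMAD signal carriers that work with endoglin, 10 were tested. In PVASC against Sub-ASC 2 were higher, 6 lower and 2 not called, where 34.7% of all genes were higher and 35.7% lower. The median log2 fold change of the 10 was -0.39, against -0.01 over all genes tested. The ligand genes Gdf2 (BMP9) and Bmp10 had at most 6 reads in any library and were not tested. Tgfbr3 (betaglycan) averaged 896 CPM in Sub-ASC, 190 in Ab-ASC and 156 in PVASC, and Tgfbr2, the type II TGF-β receptor, 722, 177 and 144 CPM. Acvrl1 (ALK1), the type I receptor to which endoglin presents BMP9, averaged 74.1, 26.4 and 14.2 CPM, whereas the ligand Tgfb3 rose from 18.0 CPM in Sub-ASC to 60.03 in Ab-ASC and 77.4 in PVASC, and all these differences between pairs of groups were called. In PVASC against Ab-ASC 3 partners were higher, 5 lower and 2 not called, and in Ab-ASC against Sub-ASC 2, 7 and 1.

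Cd34 fell mainly in Ab-ASC. It stood at 126, 131 and 127 CPM in Sub-ASC, at 90.9, 101 and 93.4 CPM in PVASC and at 15.4, 13.9 and 12.7 CPM in Ab-ASC. The levels of Sub-ASC and PVASC were close but did not overlap. Cd34 was 9.17-fold higher in Sub-ASC than in Ab-ASC (adjusted p = 1.79e-12) and 6.81-fold higher in PVASC than in Ab-ASC (log2 fold change 2.77 ± 0.08, adjusted p = 5.73e-11), while PVASC over Sub-ASC was -0.43 ± 0.07 (adjusted p = 8.51e-05).

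Cd44 was the 1 gene of the 9 that was highest in Ab-ASC. It stood at 530, 539 and 536 CPM there, at 405, 414 and 392 CPM in PVASC and at 213, 224 and 222 CPM in Sub-ASC. Cd44 was 2.44-fold higher in Ab-ASC than in Sub-ASC (log2 fold change 1.29 ± 0.05, adjusted p = 7.55e-11) and higher in PVASC than in Sub-ASC by 0.88 ± 0.05 (adjusted p = 2.74e-09). PVASC over Ab-ASC was -0.41 ± 0.05 (adjusted p = 1.24e-05). Of the hyaluronan enzymes and CD44 partners, 10 were tested: 6 were higher, 1 lower and 3 not called in PVASC against Sub-ASC, where 70.4% of all genes were called, and 6, 2 and 2 in Ab-ASC against Sub-ASC, where 75.3% were. Msn (moesin), which links CD44 to actin, averaged 499 CPM in Sub-ASC, 2047 in Ab-ASC and 1365 in PVASC. Spp1 (osteopontin), a secreted ligand of CD44 and integrins, averaged 178 CPM in Sub-ASC, 7573 ± 1953 (SD, n = 3) in Ab-ASC and 10322 in PVASC. PVASC over Ab-ASC was 0.45 ± 0.14 on the log2 scale for Spp1 (adjusted p = 0.0172), a call lost without the first PVASC library (0.43, adjusted p = 0.0502). The hyaluronan synthase Has1 averaged 2.97, 16.5 and 21.2 CPM, and Cemip, which starts hyaluronan breakdown, was highest in Sub-ASC with 919 CPM in Sub-ASC, 166 in Ab-ASC and 454 in PVASC. In PVASC against Ab-ASC 5 of the 10 were higher, 3 lower and 2 not called, and 3 were higher without the first PVASC library.

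Nt5e was lowest in PVASC and the least abundant of the 9 genes there. It stood at 5.38, 5.08 and 5.88 CPM in PVASC, at 13.4, 14.4 and 13.7 CPM in Ab-ASC and at 27.5, 33.1 and 29.5 CPM in Sub-ASC. Both steps in this order were of similar size on the log2 scale. Nt5e was 5.51-fold lower in PVASC than in Sub-ASC (log2 fold change -2.46 ± 0.09, adjusted p = 1.54e-10), and PVASC over Ab-ASC was -1.34 ± 0.10 (adjusted p = 3.23e-07) and Ab-ASC over Sub-ASC -1.12 ± 0.09 (adjusted p = 1.73e-07). Of the other genes of the adenosine pathway, 9 of 10 were tested, and 5 were higher and 4 lower in PVASC against Sub-ASC. Entpd1 (CD39), which supplies AMP from ATP, was highest where Nt5e was lowest, with a mean of 53.5 CPM in PVASC, 11.8 in Sub-ASC and 4.18 in Ab-ASC. Entpd2, a related enzyme, averaged 19.4 CPM in Sub-ASC, 1.24 in Ab-ASC and 1.34 in PVASC. Enpp1, a further source of AMP, averaged 14.9, 150 and 76.7 CPM in Sub-ASC, Ab-ASC and PVASC, and the adenosine transporter Slc29a1 18.0, 300.3 and 93.9 CPM. In PVASC against Ab-ASC 3 were higher, 3 lower and 3 not called, and in Ab-ASC against Sub-ASC 4, 4 and 1.

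The adhesion genes Alcam and Vcam1 were highest in different depots. Alcam stood at 67.0, 69.01 and 68.5 CPM in PVASC, at 25.0, 31.2 and 30.9 CPM in Ab-ASC and at 6.14, 5.62 and 6.03 CPM in Sub-ASC. It had the largest rise of the 9 genes in PVASC against Sub-ASC, 11.5-fold (log2 fold change 3.52 ± 0.09, adjusted p = 4.82e-12). PVASC over Ab-ASC was 1.23 ± 0.08 (adjusted p = 1.07e-07), or 1.13 without the first Ab-ASC library, which had the lowest Alcam level of its group. Ab-ASC over Sub-ASC was 2.30 ± 0.10 (adjusted p = 3.22e-10), or 2.40 without that library.

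Vcam1 had the smallest span of the 9 genes, 1.69-fold from its highest to its lowest group. It stood at 269, 271 and 275 CPM in Sub-ASC, at 195, 206 and 197 CPM in PVASC and at 157, 164 and 160 CPM in Ab-ASC. All of its differences were under 1 on the log2 scale: PVASC over Sub-ASC was -0.44 ± 0.05 (adjusted p = 2.58e-06), PVASC over Ab-ASC 0.31 ± 0.05 (adjusted p = 0.00013) and Ab-ASC over Sub-ASC -0.76 ± 0.05 (adjusted p = 1.49e-08). Of 9 integrin genes that bind VCAM-1 or Thy-1, 4 were higher, 4 lower and 1 not called in PVASC against Sub-ASC, 1, 4 and 4 in PVASC against Ab-ASC, and 5, 4 and 0 in Ab-ASC against Sub-ASC, where 70.4%, 56.9% and 75.3% of all genes were called. Itga4, the α4 subunit that binds VCAM-1, averaged 12.0 CPM in PVASC, 1.76 in Sub-ASC and 0.972 in Ab-ASC. Itgb7, one of its partners, averaged 46.2 CPM in Sub-ASC, 2.11 in Ab-ASC and 1.74 in PVASC. Itgb3, part of the Thy-1 receptor αvβ3, averaged 55.7, 204 and 137 CPM in Sub-ASC, Ab-ASC and PVASC, and Itga9, a further VCAM-1 receptor subunit, 61.3, 212 and 47.2 CPM.

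Levels of different genes were compared per length, as FPKM, which scales counts by the listed gene length and by the total of the library, computed from the deposited counts. In Sub-ASC Ly6a led with 1664 ± 91.8 FPKM (SD, n = 3), rank 9 of 26479 genes with a read in the group, followed by Ly6c1 with 704 ± 5.82, rank 36. In PVASC Thy1 led with 322 ± 5.78 FPKM, rank 120 of 27361, ahead of Ly6a at 101, Eng at 88.4 and Cd44 at 65.1 FPKM. In Ab-ASC Cd44 at 73.7 ± 2.52 and Thy1 at 71.9 ± 5.65 FPKM did not differ beyond their spread, and Eng followed at 33.5 FPKM. At the low end stood Alcam in Sub-ASC with 0.815 FPKM, Ly6c1 in Ab-ASC with 0.548 and Nt5e in PVASC with 0.692. In the top 10% of genes by FPKM there were 6 of the 9 in Sub-ASC, 3 in Ab-ASC and 5 in PVASC. The Sub-ASC count was 3 when only genes of at least 1 CPM were ranked, so these counts do not order the groups.

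**Figure D3:**
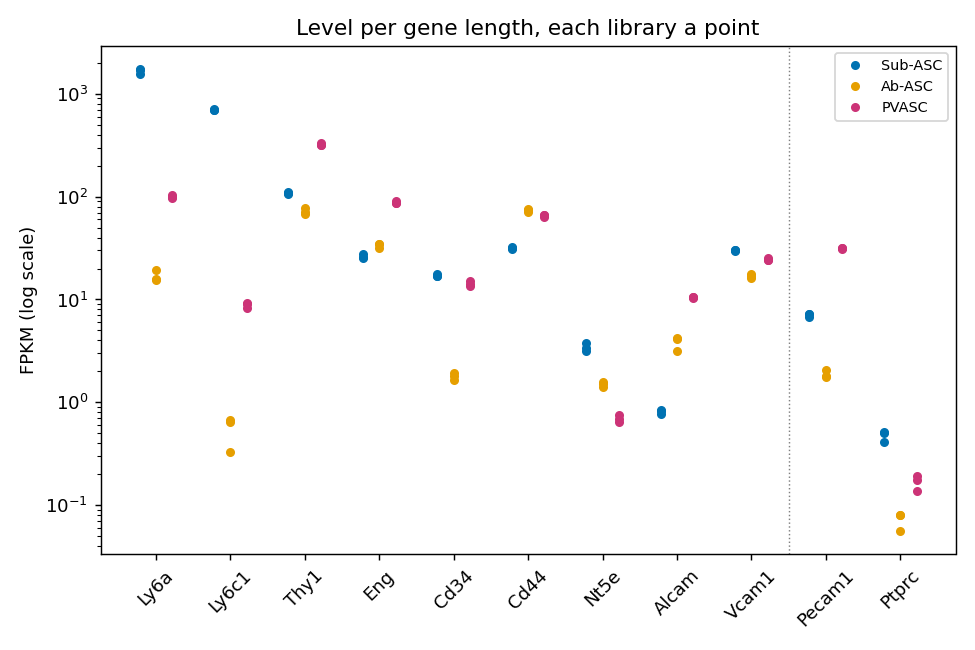
Level per length, in FPKM on a log axis, of the 9 surface marker genes and, right of the dotted line, of Pecam1 and Ptprc, with each library as a point. The gene with the highest level is Ly6a in Sub-ASC (1664 FPKM), Cd44 or Thy1 in Ab-ASC (73.7 and 71.9) and Thy1 in PVASC (322).

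In the study PVASCs of passages 3 to 6 were stained for Sca-1, CD105, CD90, CD45 and CD31 and read by flow cytometry, which counts cells with the protein at their surface. The RNA of the same 5 genes gave per length, in PVASC, 322 FPKM for Thy1, 101 for Ly6a, 88.4 for Eng, 31.5 for Pecam1 (CD31) and 0.168 for Ptprc (CD45). An RNA level does not give the share of cells that carry a protein, and no staining of Sub-ASC or Ab-ASC is described in the methods. Ptprc stood at 9.36, 9.67 and 7.78 CPM in Sub-ASC, at 1.13, 1.56 and 1.56 CPM in Ab-ASC and at 2.93, 3.22 and 2.29 CPM in PVASC, so that it was lowest in Ab-ASC and called in all 3 pairs. Pecam1 stood at 180, 177 and 182 CPM in PVASC, at 43.3, 46.1 and 46.4 CPM in Sub-ASC and at 12.2, 11.6 and 13.6 CPM in Ab-ASC. Pecam1 was 3.97-fold higher in PVASC than in Sub-ASC (log2 fold change 1.99 ± 0.06, adjusted p = 2.11e-11) and 14.4-fold higher than in Ab-ASC (3.85 ± 0.07, adjusted p = 3.05e-12). Its 31.5 FPKM in PVASC lay between Cd44 at 65.1 and Vcam1 at 24.6.

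Of 24 other surface genes used to describe stromal cells, 10 were higher, 11 lower and 3 not called in PVASC against Sub-ASC, 12, 9 and 3 in PVASC against Ab-ASC, and 6, 15 and 3 in Ab-ASC against Sub-ASC. Ngfr (CD271), a neurotrophin receptor used to enrich mesenchymal progenitors, averaged 210 CPM in Sub-ASC, 60.1 in PVASC and 0.702 in Ab-ASC. Pdgfra (CD140a), the receptor that marks adipose progenitors, averaged 2709 CPM in Sub-ASC, 443 in Ab-ASC and 332 in PVASC, and the aminopeptidase Anpep (CD13) 294, 23.4 and 13.5 CPM. Itga5 (CD49e), a fibronectin receptor subunit, was highest in Ab-ASC like Cd44, with 169 CPM in Sub-ASC, 2115 in Ab-ASC and 767 in PVASC. All pairs of groups were called for these 4 genes.

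Several of the 9 genes are also expressed by other cell types, so marker lists of those were summed per library. The 8 endothelial markers summed to 795 to 799 CPM in PVASC, 184 to 201 in Sub-ASC and 69.6 to 72.7 in Ab-ASC, the group order of Thy1 and, apart from the last 2 places, of Eng, and 7 of the 8 were higher in PVASC than in Sub-ASC and 8 of 8 higher than in Ab-ASC. Cdh5 (VE-cadherin) averaged 209, 46.5 and 17.2 CPM in PVASC, Sub-ASC and Ab-ASC, and Emcn 279, 20.2 and 10.6 CPM. Tek was lower in PVASC than in Sub-ASC, with 14.8, 46.0 and 10.1 CPM in PVASC, Sub-ASC and Ab-ASC. Vwf was low in every group, with 2.47, 1.74 and 1.74 CPM. No endothelial marker was at 0 reads in any group. The 6 mural cell markers summed to 266 to 276 CPM in PVASC, 158 to 166 in Sub-ASC and 63.7 to 70.8 in Ab-ASC, with 4 higher and 2 lower in PVASC than in Sub-ASC. Mcam (CD146) averaged 134, 22.4 and 24.9 CPM in PVASC, Sub-ASC and Ab-ASC. The 2 lower were the potassium channel subunit genes Abcc9, with 0.502, 103 and 0.490 CPM, and Kcnj8, with 0.283, 4.41 and 0.312 CPM. The part of endothelial and mural cells in the levels of Thy1, Eng, Cd34, Ly6c1 and Vcam1 was not tested.

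Mesothelial markers summed to 3.13 to 3.26 CPM in Sub-ASC, with Upk1b, Lrrn4 and Muc16 at 0 reads, 123 to 132 in Ab-ASC and 49.8 to 51.6 in PVASC. Of the 9 tested, 8 were higher and 1 was not called in each of the 2 groups against Sub-ASC. Eng, Alcam and Cd44 were also lowest in Sub-ASC, Cd44 and the sum being highest in Ab-ASC and Eng and Alcam in PVASC, and the part of mesothelial cells in their levels was not tested. The 10 haematopoietic markers summed to 260 to 264 CPM in Sub-ASC, 313 to 408 in Ab-ASC and 301 to 311 in PVASC, and of the 8 tested 6 were lower and 2 higher in each of PVASC and Ab-ASC against Sub-ASC. Cd68 averaged 32.8, 23.1 and 11.6 CPM in Sub-ASC, Ab-ASC and PVASC, Csf1r 17.6, 34.1 and 22.9 CPM, and the lysozyme gene Lyz2, the largest part of the sum, 162.5, 271 and 249.1 CPM. The T cell gene Cd3e was at 0 reads in Ab-ASC and PVASC. Their part in the levels of Ly6c1, Cd44 and Nt5e was not tested.

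Fibroblast and preadipocyte markers, which check the label of stromal cells, summed to 29623 to 30240 CPM in Sub-ASC, 11869 to 12274 in Ab-ASC and 6442 to 6707 in PVASC. All 8 were detected in each group and all 8 were lower in PVASC than in Sub-ASC. In Ab-ASC against Sub-ASC 2 were higher and 6 lower, and in PVASC against Ab-ASC 1 was higher and 7 lower. Adipocyte markers summed to 142 to 155, 35.0 to 38.2 and 45.6 to 48.3 CPM in Sub-ASC, Ab-ASC and PVASC, with Lep at 0 reads in all groups. Most of each sum was Fabp4, with 129, 36.6 and 46.3 CPM, while Adipoq averaged 0.667, 0.0327 and 0.0638 CPM. Genes of cycling cells summed to 57.5 to 64.2 CPM in Sub-ASC, 631 to 720 in Ab-ASC and 649 to 663 in PVASC, and all 8 were higher in each of the latter than in Sub-ASC. Ly6a, Ly6c1 and Cd44 also set Sub-ASC apart from both other groups, and the part of cycling in their levels was not tested.

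Ly6a, Ly6c1 and Vcam1 are known targets of inflammatory signals, the Ly6 genes of interferons and Vcam1 of NF-κB. The 10 interferon-response genes summed to 2479 to 2566 CPM in Sub-ASC, 124 to 141 in Ab-ASC and 118 to 120 in PVASC, with 10 of 10 lower in PVASC and in Ab-ASC than in Sub-ASC. Their median log2 fold change was -4.33 for PVASC over Sub-ASC and -4.56 for Ab-ASC over Sub-ASC, against -0.01 and -0.03 over all genes tested. Between PVASC and Ab-ASC, where Ly6a and Ly6c1 were both higher in PVASC, 5 of the 10 were higher, 3 lower and 2 not called, with a median of 0.41. The 8 NF-κB-response genes summed to 776 to 807 CPM in Sub-ASC, 1130 to 1214 in Ab-ASC and 552 to 562 in PVASC. Of these 8, 1 was higher, 6 lower and 1 not called in PVASC against Sub-ASC, 1, 7 and 0 in PVASC against Ab-ASC, and 6, 1 and 1 in Ab-ASC against Sub-ASC. The chemokine gene Ccl2 made up much of the sum, with 331, 668 and 255 CPM in Sub-ASC, Ab-ASC and PVASC. The adhesion gene Icam1 had the group order of Vcam1, with 157, 44.9 and 80.2 CPM. It was the 1 gene of the 8 called lower in Ab-ASC than in Sub-ASC and the 1 called higher in PVASC than in Ab-ASC. Cxcl1 averaged 34.3, 61.6 and 5.16 CPM in Sub-ASC, Ab-ASC and PVASC, and Relb 45.1, 54.7 and 21.6 CPM. The part of both responses in the levels of Ly6a, Ly6c1 and Vcam1 was not tested.

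**Figure D4:**
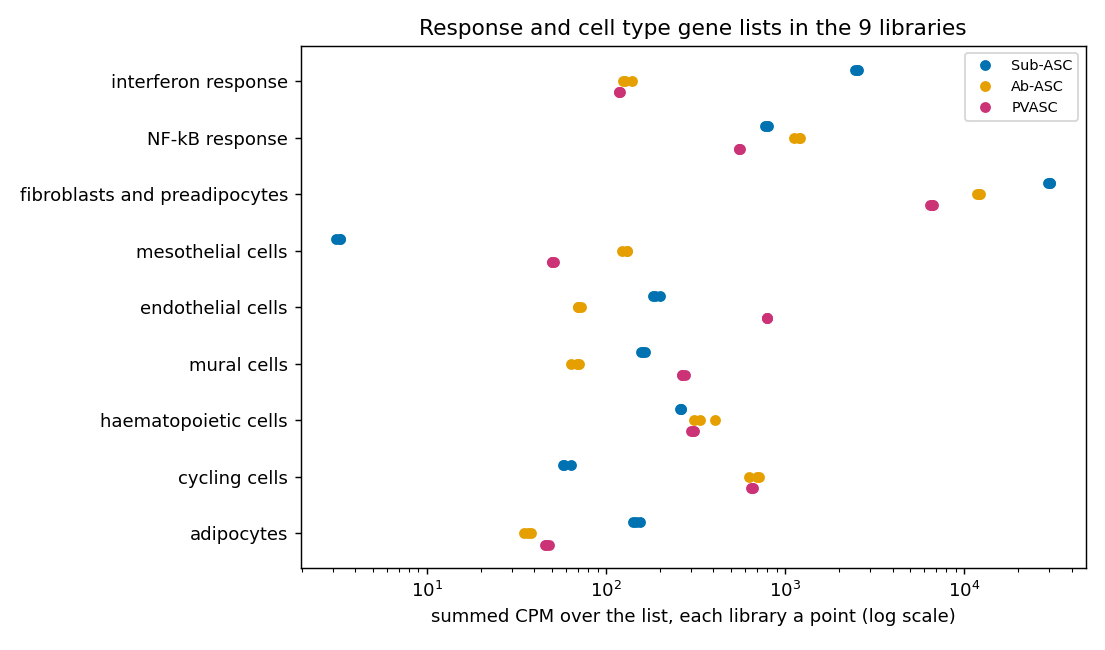
Summed CPM, on a log axis, of the genes of 9 marker and response lists, with each of the 9 libraries as a point. The interferon-response sum lies at 2479 to 2566 CPM in Sub-ASC and at 118 to 141 CPM in the other groups, and the endothelial sum is highest in PVASC at 795 to 799 CPM.

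Likeness of pattern was measured as the distance between log2 CPM values centred on each gene's own mean, over 9 libraries and 13875 protein-coding genes. These libraries form 3 groups, so any correlation mostly repeats 3 group levels. The nearest genes to Ly6a were Ifit1 (distance 0.515) and Tnfsf10 (0.529), both interferon-inducible. Nearest to Ly6c1 were F830016B08Rik (2.53) and the guanylate-binding protein gene Gbp5 (2.64). In Ab-ASC Tnfsf10 averaged 0 CPM and F830016B08Rik 0.0179 CPM, under the floor of 3 reads, so their distances are less certain. Nearest to Thy1 were Thsd1 and Nov, to Eng Jup and Sh3bp5, to Cd34 Igfbp5 and Cdh13, and to Alcam Timp3 and Serpinb9b. Nearest to Nt5e were Sobp and Angptl2. Nearest to Cd44 were the fibrillin gene Fbn1 (0.110) and Nlk (0.134), and to Vcam1 Stx2 (0.113) and Ikbkg (0.128). The distance grows with the range of the gene itself, so it ranks the neighbours of 1 gene and does not compare the 9 genes. Within the 9 genes Pearson's r over the libraries was 0.998 for Ly6a with Ly6c1, 0.993 for Ly6a with Vcam1, -0.997 for Ly6a with Cd44 and -0.971 for Nt5e with Alcam. The pair of Thy1 and Eng had r = 0.864.

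The 9 genes lie on 6 chromosomes in GRCm38, and 2 of them, Ly6a (chr15:74994877-74998031) and Ly6c1 (chr15:75044018-75048830), lie near each other on the minus strand of chromosome 15. Thy1 (chr9:44043384-44048579) and Nt5e (chr9:88327197-88372092) are on the plus strand of chromosome 9, and Eng (chr2:32646595-32682669, plus) and Cd44 (chr2:102811141-102901665, minus) on chromosome 2. Cd34 lies at chr1:194938819-194961279 on the plus strand, Alcam at chr16:52248996-52454074 and Vcam1 at chr3:116109949-116129688 on the minus strand. In the order named at the start, their identifiers are ENSMUSG00000075602, ENSMUSG00000079018, ENSMUSG00000032011, ENSMUSG00000026814, ENSMUSG00000016494, ENSMUSG00000005087, ENSMUSG00000032420, ENSMUSG00000022636 and ENSMUSG00000027962. Counts cover the exons of each gene with its untranslated parts, so isoforms such as those of Cd44, whose longest coding transcript has 19 exons, are not separated. Exons of 3 genes overlap a gene on the opposite strand: Eng shares 61 bases with Fpgs, Cd34 148 with Gm16897 and Vcam1 61 with Gm43109. The library kit named in the labels does not mark strand, so reads in these bases cannot be told apart. Fpgs had 346 to 839 reads per library, Gm16897 at most 32 and Gm43109 at most 9.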

How the data were processed

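RNA had been extracted with Trizol, made into libraries with a NEBNext Ultra kit and sequenced. The authors deposited 1 table of read counts per gene with gene lengths, read here as deposited. Per the labels, the submitters' processing notes name CASAVA 1.8, Bowtie 0.12.2, featureCounts 1.5.0-p3 and the builds mm8 and mm10, with roles not given. Of 54409 table genes with a GENCODE M21 identifier, 53499 had the same start and end as in that annotation (GRCm38, mm10). Counts were filtered (filterByExpr), scaled (TMM) and tested with edgeR 4.0.16 (quasi-likelihood F test, R 4.3.3) over all 9 libraries in 1 fit without covariates, with Benjamini-Hochberg adjustment over 16526 genes. SEs are the absolute log2 fold change divided by the square root of F. The steps were tested on simulated data. No 2 libraries were as close as sampling noise. Members and lists were chosen with earlier results of these data known. Named genes were the 9, the staining panel, up to 4 per list with the smallest p for any difference among groups, and 2 nearest in pattern per gene. Genes outside that rule (Kcnj8, Lynx1, Ly6k, Lyz2, Cd3e, Lep, Lrrn4, Muc16, Tek, Vwf, Gdf2, Bmp10) were chosen after their values were seen. Alternatives were DESeq2 1.42.0, RLE scaling, no filter, at least 10 reads in every library, the replicate block, only the compared groups, leaving out each library, and other gene sets for ranks.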

Additional observations from a re-analysis of the deposited data

How the results depend on the processing

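With DESeq2, RLE scaling, no filter, at least 10 reads in every library, the replicate block, only the 2 groups compared, or any 1 library left out, the number of the 9 genes called stayed at 9 in each pair of groups, and each of their 405 alternative log2 fold changes kept its direction and its side of the threshold. Of all genes tested, 41.5% to 76.3% were called under these alternatives in PVASC against Sub-ASC, 31.8% to 60.6% in PVASC against Ab-ASC and 44.1% to 77.9% in Ab-ASC against Sub-ASC. Requiring a difference of 1 or more on the log2 scale left 6, 7 and 6 genes in PVASC against Sub-ASC, PVASC against Ab-ASC and Ab-ASC against Sub-ASC. Log2 fold changes ranged from -10.45 to -9.97 for Ly6c1 and from -6.69 to -6.49 for Ly6a in Ab-ASC against Sub-ASC, and from 3.49 to 3.55 for Alcam in PVASC against Sub-ASC. Replicate numbers were shared by the groups, and same-numbered libraries did not deviate together (correlations up to 0.0950, the lowest -0.0514). With 3 libraries per group this cannot show whether same-numbered libraries shared an animal or a harvest, which is not stated. With the replicate block 9 genes were called in each pair. Of 9 genes, 6 were in the top 10% by FPKM in Sub-ASC, and 3 when only genes of at least 1 CPM were ranked, since fewer low genes then enter the ranking. The list counts were recomputed under the same alternatives, an addition made after seeing the data: 13 moved by over 1.5 times and 707 did not, the former nearly all where at least 10 reads in every library were required, which left fewer genes of the Ly6, mesothelial, mural and adipocyte lists (2 mesothelial genes, for example). Spp1 in PVASC against Ab-ASC lost its call without the first PVASC library, and Col3a1 in the same comparison under several settings. Depth limits Ly6c1 in Ab-ASC, Ly6c2, Ly6i and Gpihbp1, with few reads.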
